A study of Mus musculus with 10 samples.

Results

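The genes described here are 31 genes of the G2 phase and of mitosis, the stage in which a cell that has copied its DNA divides. They form a set fixed by symbol, and each symbol had 1 row among the 23510 rows of a gene count table. The table covers lymphatic endothelial cells (LEC), the lining cells of lymphatic vessels, which were obtained by FACS out of MT-ret melanomas. These tumours grew from fragments implanted into the flank of C57BL/6N mice. Mice received an intraperitoneal dose of control IgG (5 mice) or of an antibody against angiopoietin-2 (anti-Ang2, 5 mice) and were killed 12 hours later. Both groups carried the same tumour and were of the same strain, and neither group was untreated; age, sex, antibody dose and antibody clone are not given in the sources used here. The 10 libraries, which started from 0.5 ng of total RNA, are described as independent biological replicates. The comparison asks how transcripts of dividing cells differ in tumour LEC soon after blockade of Ang2, which binds Tie2 on endothelium.

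Entry into mitosis is driven by the kinase Cdk1 bound to cyclins A and B. Transcripts of the module are made mainly in late S phase and G2, under the transcription factors B-Myb (Mybl2) and FoxM1, which act with the MuvB complex at a promoter element called the cell cycle homology region (CHR), often beside CCAAT boxes bound by NF-Y. In resting cells the same element is held by the repressive DREAM complex, so that the genes are silent outside the cell cycle. Most mature lymphatic endothelial cells rest, and growth of tumour lymphatics needs them to divide. The sum of such transcripts in sorted cells therefore follows both the number of cycling cells and the RNA made by each, and in bulk RNA fewer cells of a type and less RNA per cell cannot be told apart.

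The promoters of the members show the shared elements. Sequences were taken from RefSeq promoters (build GRCm38.p6, 250 bases before to 50 after the start), where 26 of the 31 members had an entry; Foxm1, Ccna2, Aurkb, Tpx2 and Kif20a were not in that table. The CHR was searched as TTTGAA or TTCGAA and the NF-Y box as CCAAT, each on both strands. A CHR match was present in 20 of 26 members (76.9%) and in 19.4% of all 27025 promoters of the same length, one per gene. CCAAT was present in 21 of 26 members (80.8%) and in 37.9% of all promoters, and both were present in 19 members (73.1%) against 7.70%. E2F sites, typical of G1/S genes and searched as TTTCCCGC, TTTGGCGC or TTTCGCGC on both strands, were present in 1 member (3.85%) against 1.91% of all promoters, the member being Cdk1. Matches of different motifs overlapped in 1 member, Cdca8, where a CHR and a CCAAT match share a base. In the 250 bases before the start alone, 9 of 26 members held a CHR match (34.6%), against 17.4% of all promoters, the remaining matches lying across or after the start. Neither motif was matched in Mybl2, Birc5, Tacc3 and Nusap1. A match is a string of letters and not a measured binding site. The RefSeq start lay within 50 bases of the GENCODE gene start in 22 of 26 members. It lay farther off in Mybl2 (52 bases), Ccnb1 (84), Cenpa (109) and Cdca8 (2394), and the whole Mybl2 window ended before the GENCODE start, so that the missing matches there apply to that window only. Bases before the start, 5′ to 3′ on the strand of the gene with CHR and CCAAT matches in capitals, are given for Mki67, which passed the test, and for Cdk1 and the B-type cyclins, which drive entry into mitosis.

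Mki67, chr7:135716451-135716629, minus strand: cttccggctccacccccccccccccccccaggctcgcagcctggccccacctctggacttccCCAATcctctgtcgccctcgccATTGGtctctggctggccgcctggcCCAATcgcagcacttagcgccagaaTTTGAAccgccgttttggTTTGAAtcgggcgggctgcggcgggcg

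Cdk1, chr10:69352939-69353162, minus strand: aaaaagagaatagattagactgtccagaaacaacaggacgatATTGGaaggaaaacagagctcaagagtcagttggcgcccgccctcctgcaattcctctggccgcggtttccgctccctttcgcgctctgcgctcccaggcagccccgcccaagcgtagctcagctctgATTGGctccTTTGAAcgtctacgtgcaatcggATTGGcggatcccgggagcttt

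Ccnb1, chr13:100786571-100786736, minus strand: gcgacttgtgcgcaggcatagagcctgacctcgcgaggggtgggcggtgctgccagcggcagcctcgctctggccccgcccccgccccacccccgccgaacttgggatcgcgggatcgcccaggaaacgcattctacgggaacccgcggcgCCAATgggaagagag

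Ccnb2, chr9:70421555-70421804, minus strand: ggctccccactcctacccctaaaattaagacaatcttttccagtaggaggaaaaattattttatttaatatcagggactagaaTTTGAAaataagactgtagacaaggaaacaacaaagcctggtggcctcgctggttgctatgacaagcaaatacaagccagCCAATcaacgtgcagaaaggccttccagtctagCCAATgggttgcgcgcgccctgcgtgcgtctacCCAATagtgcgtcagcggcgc

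Bases that either annotation places inside the gene were left out. In these stretches Mki67 held 2 CHR and 3 CCAAT matches, Cdk1 and Ccnb2 held 1 and 3 each, and Ccnb1 held 0 and 1. The stretch of Kif23, from base -250 to base -12, held 0 CHR and 0 CCAAT matches and is not printed. In Kif23, the other gene that passed, and in Ccnb2 a CHR match begins at base 3 and base 5 after the start, in capitals in these 30-base sites. Only CHR matches are in capitals there. The Kif23 site also holds a CCAAT match on the other strand, at base -7, in lower case.

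Kif23 site, chr9:61946780-61946809, minus strand: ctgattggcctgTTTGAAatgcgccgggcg

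Ccnb2 site, chr9:70421533-70421562, minus strand: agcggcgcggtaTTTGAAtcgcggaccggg

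Library totals ran from 38090933 to 83850341 gene counts, and the members had 21 to 5135 counts in a library. Counts were expressed as CPM, a count relative to the library total, after scaling by TMM, which corrects the totals for differences in composition. Markers of the sorted cell type were abundant in each library: the summed CPM of 9 endothelial and lymphatic markers (Prox1, Pdpn, Lyve1, Flt4, Ccl21a, Reln, Mmrn1, Pecam1 and Cdh5) was 17959 to 21261 in IgG and 14950.4 to 19985 in anti-Ang2 libraries, and no marker was at 0 in a library. Of these markers Ccl21a fell, from a mean of 883 CPM in IgG to 379 CPM in anti-Ang2 libraries (log2 fold change -1.22, adjusted p = 0.0045 by edgeR). None of the others passed the test. Lyve1 and Reln had log2 fold changes above 0 (0.28 and 0.43), and the rest had values under 0. The fibroblast sum spanned 195 to 923 CPM in IgG and 212 to 742 CPM in anti-Ang2 libraries, and those of lymphocytes and keratinocytes stayed at or under 10.6 CPM and 3.65 CPM. Fibroblast markers did not differ in the same direction. Means in IgG and anti-Ang2 were 91.9 and 22.6 CPM for Col1a1, 67.5 and 12.9 for Col1a2, and 127 and 41.2 for Col3a1. Those of Dcn were 144 and 332 CPM. Lum was also higher in anti-Ang2 libraries, and Pdgfra, Dpt and Col6a3 were lower. None of the fibroblast markers passed the test. Of the anti-Ang2 libraries, anti-Ang2 3 had the lowest and anti-Ang2 4 the highest summed CPM of the members. Results without single libraries are given beside the counts.

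Mitotic transcripts were lower after anti-Ang2 in the fitted direction of each member, while Kif23 and Mki67 were the members that passed the test singly. Melanoma, macrophage and blood endothelial transcripts also varied between the groups and libraries, and their values follow at the end. The summed CPM of the 31 members was 850.5, 921, 927, 666 and 542 in IgG libraries 1 to 5 and 545, 572, 306, 740.3 and 413 in anti-Ang2 libraries 1 to 5. IgG 4 and IgG 5 were the lowest of their group and anti-Ang2 4 lay above both, so that the groups overlapped. Means were 781 ± 170.5 CPM for IgG and 515 ± 165.1 CPM for anti-Ang2 (SD, n = 5 each), a ratio of 0.659. The log2 fold change was under 0 in 31 of 31 members, against 48.0% of the 16240 genes tested, with a median of -0.62 against 0.01 over all tested genes. Because the members vary together between libraries, as described further on, these 31 directions are not independent of each other. Members ranged from -1.27 (Ttk) to -0.07 (Cenpa).

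By edgeR, 2 of 31 members fell at an adjusted p under 0.05 over all tested genes, against 2.80% of tested genes, and 0 rose. At an unadjusted p under 0.05, 14 members were lower (45.2%) and 0 higher, against 9.10% of tested genes lower; because the members vary together between libraries, as described further on, these 14 are not independent of each other. With 1 library left out this count was 7 (without IgG 3) to 20 (without anti-Ang2 4). The groups did not overlap in 2 members, Kif23 and Mki67, against 3.76% of tested genes. DESeq2 called 7 members lower and 0 higher, against 5.94% of the genes it adjusted, and added Ttk, Aurkb, Top2a, Kif11 and Bub1b. Limma-voom called 3 (Ttk added), against 3.26% of tested genes, limma on FPKM the same 3, against 3.07%, and voom with sample quality weights 8, against 4.80%. The authors' deposited table gave 7 members a negative log2 fold change at an adjusted p under 0.05, against 4.83% of its genes, led by Kif23 (adjusted p = 0.000109) and Mki67 (0.000383). The count by edgeR was 0 without IgG 2, IgG 3 or anti-Ang2 1, 1 without anti-Ang2 3 (Kif23) and 5 without anti-Ang2 4 (Kif23, Mki67, Aurkb, Ttk and Kif11), against 2.44% of tested genes in the last fit. Over all tested genes, 292, 259, 349 and 309 fell without IgG 2, IgG 3, anti-Ang2 1 and anti-Ang2 3, respectively. Without anti-Ang2 1, 2 and 3 together the count of members was 0, against 178 of 17701 tested genes. Without anti-Ang2 4 and 5 together it was 5, against 3.49%.

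**Figure D1:**
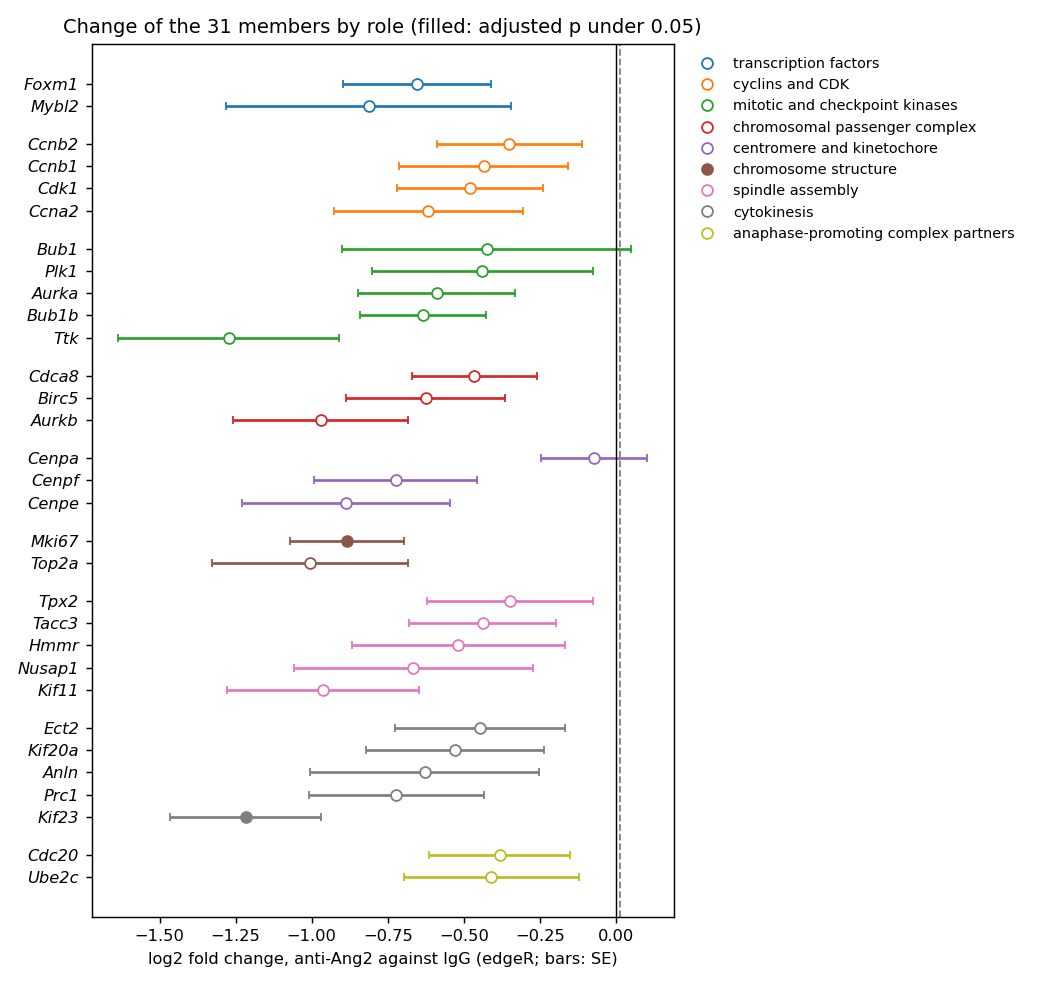
Log2 fold change of each of the 31 members, anti-Ang2 against IgG, with its standard error (bars), grouped and coloured by role; filled points passed the edgeR test and the dashed line marks the median of all tested genes (0.01). All points lie left of 0, from -1.27 (Ttk) to -0.07 (Cenpa), and those of Kif23 and Mki67 are filled.

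Per length, the members were transcripts of middling abundance. Their deposited FPKM (fragments scaled for transcript length and library size), averaged over the 10 libraries, ran from 0.745 (Mybl2) to 23 (Ccnb2) with a median of 4.22, against a median of 4.28 over all tested genes. Ccnb2 and the anaphase activator Cdc20 (18.6 FPKM) were the most abundant, and Mybl2, Ttk (1.27), Ccnb1 (1.75), Cenpf (1.76), Cenpe (1.9) and Kif23 (1.95) were at the low end. Thus the B-type cyclins, partners of the same kinase, differed in FPKM, with Ccnb2 at 23 and Ccnb1 at 1.75. The gap was narrower in CPM, which is not scaled for length. Group means for IgG and anti-Ang2 were 38.1 and 29.9 CPM for Ccnb2 and 8.17 and 6.05 CPM for Ccnb1.

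Among the cytokinesis genes was the member with the smallest p. Kif23 encodes the kinesin of the centralspindlin complex, which bundles microtubules between the separating chromosomes. It was at 21.6, 22.9, 22.4, 17.6 and 19.9 CPM in IgG libraries 1 to 5 and 8.22, 12.3, 4.48, 12.5 and 7.45 CPM in anti-Ang2 libraries 1 to 5. Each anti-Ang2 library lay below every IgG library, the closest being anti-Ang2 4 and IgG 4. Kif23 fell (log2 fold change -1.22 ± 0.25 (SE), adjusted p = 0.0196 by edgeR). Its span in mm10 is chr9:61915905-61946774, minus strand. Kif20a, a kinesin that brings passenger proteins to the central spindle, was at 26.1, 28.3, 37.2, 21.1 and 22.1 CPM in IgG libraries 1 to 5 and 20.7, 22.5, 7.99, 28.3 and 14 CPM in anti-Ang2 libraries 1 to 5. Its groups overlapped, anti-Ang2 4 lying above 3 IgG libraries, and it did not pass (log2 fold change -0.53 ± 0.29 (SE), adjusted p = 0.388 by edgeR). The other members of this group also did not pass: the microtubule bundler Prc1, the scaffold anillin (Anln) and Ect2 had log2 fold changes of -0.72, -0.63 and -0.45. Anillin was lowest in anti-Ang2 5, at 4.98 CPM, where the other anti-Ang2 libraries held 13.8 to 27.9 CPM.

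Of the chromosome structure genes, the proliferation marker Mki67 fell. Ki-67 coats mitotic chromosomes and keeps them apart. Its transcript was at 62, 61.1, 55.9, 48.4 and 39 CPM in IgG libraries 1 to 5 and 29.8, 36.9, 20.6, 34.9 and 22.2 CPM in anti-Ang2 libraries 1 to 5. The lowest IgG library (IgG 5) lay just above the highest anti-Ang2 library (anti-Ang2 2), and the groups did not overlap. The change was smaller than in Kif23 and more precise (log2 fold change -0.88 ± 0.19 (SE), adjusted p = 0.0227 by edgeR). The span of Mki67 in mm10 is chr7:135689784-135716361, minus strand. Top2a, the topoisomerase that untangles replicated chromosomes, was at 62.5, 62, 83.2, 54.6 and 37.2 CPM in IgG libraries 1 to 5 and 35.6, 28.8, 11.8, 49.3 and 23.7 CPM in anti-Ang2 libraries 1 to 5. Here anti-Ang2 4 lay above IgG 5, and the difference did not pass (log2 fold change -1.01 ± 0.32 (SE), adjusted p = 0.114 by edgeR).

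**Figure D2:**
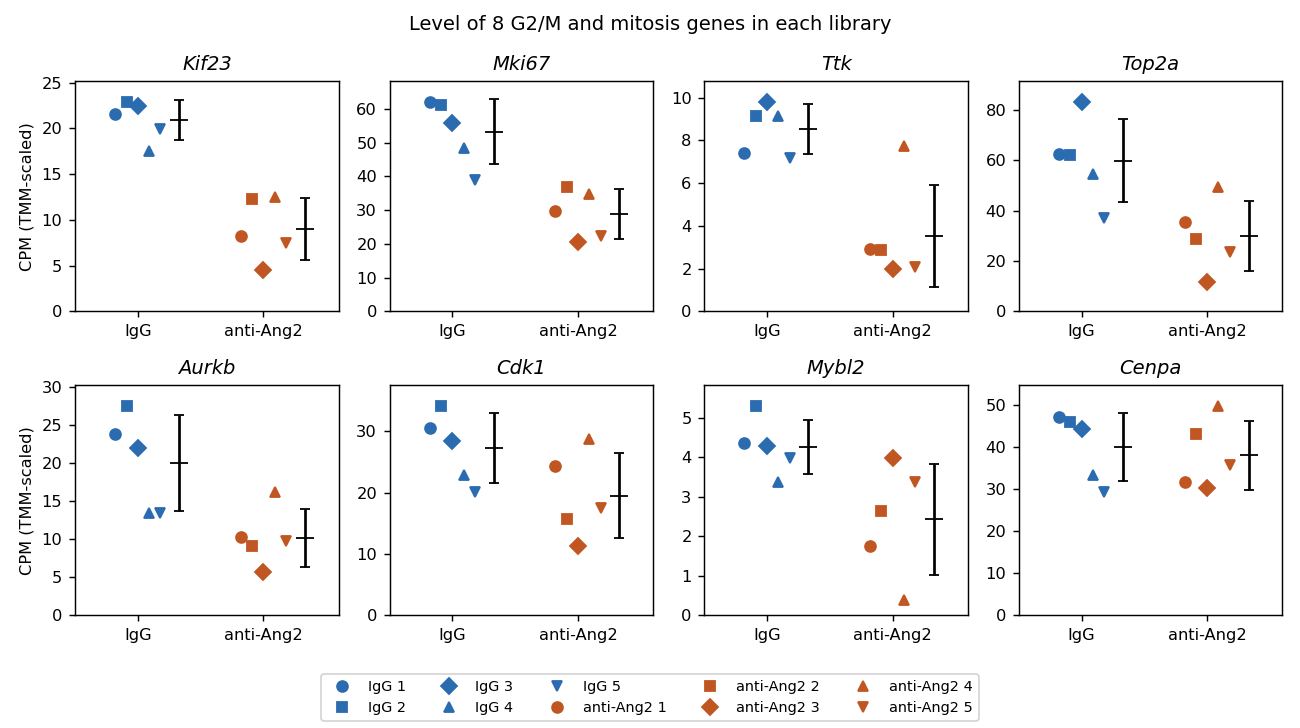
CPM (vertical axis, linear, from 0) of 8 members in each library, with 1 symbol per replicate number and the mean ± SD of each group as a black bar; the numbers do not pair the mice. The groups are separate in Kif23 and Mki67, a single anti-Ang2 library (4, upward triangle) lies within the IgG range in Ttk, Top2a and Aurkb, and that same library is the lowest in Mybl2.

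Among mitotic and checkpoint kinases, Ttk had the largest fold change of the module and did not pass. Ttk (Mps1) starts the checkpoint that delays anaphase until all chromosomes are attached. It was at 7.4, 9.14, 9.79, 9.13 and 7.16 CPM in IgG libraries 1 to 5 and 2.93, 2.89, 2.0, 7.72 and 2.07 CPM in anti-Ang2 libraries 1 to 5. It was 2.93 CPM or lower in 4 anti-Ang2 libraries, whereas anti-Ang2 4 lay within the IgG range (log2 fold change -1.27 ± 0.36 (SE), adjusted p = 0.0787 by edgeR). Without anti-Ang2 4 it passed (log2 fold change -1.78, adjusted p = 0.0037 by edgeR). Plk1, the polo kinase that acts on centrosomes, kinetochores and the cleavage furrow, was at 21.8, 22.7, 17.7, 11 and 12.5 CPM in IgG libraries 1 to 5 and 12.5, 15.6, 5.47, 22.4 and 7.2 CPM in anti-Ang2 libraries 1 to 5. It had the highest FPKM of these kinases (7.02), with overlapping groups (log2 fold change -0.44 ± 0.36 (SE), adjusted p = 0.597 by edgeR). The checkpoint kinases Bub1 and Bub1b and the spindle pole kinase Aurka had log2 fold changes of -0.42, -0.63 and -0.59, none past the threshold. Bub1 ranged widely in the treated group, from 3.07 CPM in anti-Ang2 3 to 20.9 CPM in anti-Ang2 4, the highest of all 10 libraries.

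The chromosomal passenger complex corrects faulty attachments of chromosomes and directs cytokinesis. Its kinase Aurkb was at 23.8, 27.5, 21.9, 13.4 and 13.4 CPM in IgG libraries 1 to 5 and 10.3, 9.09, 5.72, 16.2 and 9.83 CPM in anti-Ang2 libraries 1 to 5. IgG 4 and IgG 5 were low in their group and lay below anti-Ang2 4 but above the other anti-Ang2 libraries (log2 fold change -0.97 ± 0.29 (SE), adjusted p = 0.0885 by edgeR). Survivin (Birc5), which targets the complex to chromosomes, was at 23.7, 28.9, 21.9, 20.5 and 13.9 CPM in IgG libraries 1 to 5 and 15.8, 13.1, 8.12, 22.1 and 11.5 CPM in anti-Ang2 libraries 1 to 5. The groups overlapped through IgG 5, anti-Ang2 1 and anti-Ang2 4 (log2 fold change -0.62 ± 0.26 (SE), adjusted p = 0.229 by edgeR). Borealin (Cdca8) differed less (log2 fold change -0.47). All 3 had an unadjusted p under 0.05 and none passed after adjustment.

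None of the centromere and kinetochore genes passed the test. Cenpa, the histone H3 variant that marks the centromere, was at 47.1, 45.8, 44.1, 33.3 and 29.2 CPM in IgG libraries 1 to 5 and 31.5, 42.9, 30.2, 49.7 and 35.7 CPM in anti-Ang2 libraries 1 to 5. Anti-Ang2 4 was the highest of all libraries and IgG 5 the lowest, and the group means were 39.9 and 38.0 CPM (log2 fold change -0.07 ± 0.17 (SE), adjusted p = 0.889 by edgeR). Cenpa was the member with the smallest difference. Cenpf, a large protein of the outer kinetochore and nuclear envelope, was at 32.9, 34.2, 41.6, 30.3 and 23.8 CPM in IgG libraries 1 to 5 and 20.7, 21.2, 7.93, 23 and 25.9 CPM in anti-Ang2 libraries 1 to 5. In 4 anti-Ang2 libraries it lay below every IgG library, and anti-Ang2 5 lay just above IgG 5 (log2 fold change -0.72 ± 0.27 (SE), adjusted p = 0.17 by edgeR). The kinetochore kinesin Cenpe had a log2 fold change of -0.89.

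None of the cyclins, nor Cdk1, passed the test. Cdk1 was at 30.6, 34.2, 28.5, 22.8 and 20.2 CPM in IgG libraries 1 to 5 and 24.4, 15.8, 11.3, 28.7 and 17.5 CPM in anti-Ang2 libraries 1 to 5. Anti-Ang2 4 lay above 3 IgG libraries and anti-Ang2 1 above 2 (log2 fold change -0.48 ± 0.24 (SE), adjusted p = 0.333 by edgeR). Ccnb2, cyclin B2, was at 38.7, 45.4, 48.6, 32.2 and 25.8 CPM in IgG libraries 1 to 5 and 34.9, 39.6, 19.3, 35.8 and 20 CPM in anti-Ang2 libraries 1 to 5. IgG 5 lay below anti-Ang2 1, 2 and 4 (log2 fold change -0.35 ± 0.24 (SE), adjusted p = 0.497 by edgeR). Log2 fold changes of Ccna2 and Ccnb1 were -0.62 and -0.43. None of the 4 had an unadjusted p under 0.05 by edgeR.

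Spindle assembly genes were led by Kif11, the kinesin that pushes spindle poles apart. It was at 21.7, 27.7, 24.1, 23.2 and 12.9 CPM in IgG libraries 1 to 5 and 10.6, 11, 6.01, 20.8 and 7.78 CPM in anti-Ang2 libraries 1 to 5. In 4 anti-Ang2 libraries it lay below every IgG library, while anti-Ang2 4 was close to IgG 1 (log2 fold change -0.96 ± 0.32 (SE), adjusted p = 0.12 by edgeR). Tacc3, which stabilizes microtubule bundles of the spindle, had the highest FPKM of this group (7.42) and was at 30, 32.7, 36.4, 29.6 and 17.2 CPM in IgG libraries 1 to 5 and 24.6, 17.5, 19.5, 32.4 and 13.8 CPM in anti-Ang2 libraries 1 to 5. IgG 5 stood below the rest of its group and overlapped the anti-Ang2 libraries (log2 fold change -0.44 ± 0.24 (SE), adjusted p = 0.388 by edgeR). Tpx2, Hmmr and Nusap1, which nucleate or bind spindle microtubules, had log2 fold changes of -0.35, -0.52 and -0.67, and none passed.

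The partners of the anaphase-promoting complex, the ubiquitin ligase that ends mitosis, were among the members that differed least. Cdc20, its activator, was at 38.4, 48.5, 48.4, 25.1 and 30.3 CPM in IgG libraries 1 to 5 and 27, 39.9, 21.1, 36.7 and 21.5 CPM in anti-Ang2 libraries 1 to 5. IgG 4 and IgG 5 lay below anti-Ang2 2 and 4 (log2 fold change -0.38 ± 0.23 (SE), adjusted p = 0.439 by edgeR). Its ubiquitin-conjugating enzyme Ube2c had a log2 fold change of -0.41.

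The transcription factors of the module were Foxm1 and Mybl2. Foxm1 was at 18.7, 25.2, 27.7, 23.3 and 13.2 CPM in IgG libraries 1 to 5 and 13.3, 19.8, 9.95, 9.83 and 16 CPM in anti-Ang2 libraries 1 to 5. IgG 5 lay at the level of the anti-Ang2 libraries and anti-Ang2 2 above IgG 1, so that the groups overlapped (log2 fold change -0.65 ± 0.24 (SE), adjusted p = 0.171 by edgeR). Mybl2, chosen for full values after its pattern was seen, was at 4.35, 5.3, 4.28, 3.39 and 3.99 CPM in IgG libraries 1 to 5 and 1.76, 2.64, 3.98, 0.400 and 3.37 CPM in anti-Ang2 libraries 1 to 5. Anti-Ang2 4, the treated library with the highest level of most members, was the lowest here. It held 21 counts of Mybl2, a 95% exact Poisson interval of 0.248 to 0.612 CPM that covers counting error only, against 91 to 207 counts in the other anti-Ang2 libraries (log2 fold change -0.81 ± 0.47 (SE), adjusted p = 0.411 by edgeR). The intervals of the other libraries all lay above this one.

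Between libraries of the same treatment the members went up and down together. For each gene the deviation of its log2 CPM from its group mean was taken in all 10 libraries, and pairs of genes were compared by Pearson's correlation; 5 libraries per group are too few for a value in each group, and the libraries of a pair share their depth and cell makeup. The median over 465 member pairs was 0.74 (0.71 with Spearman's correlation), against 0.00 over all 131860680 pairs of tested genes. Of the member pairs 82.4% exceeded 0.5, against 11.0% of all pairs. A single axis took 74.2% of the variance of the members' deviations. The standard deviation of the members' mean was 0.42 on the log2 scale, close to the 0.51 of a typical single member, so that averaging 31 genes removed little of the spread between mice; over all tested genes the corresponding values were 0.06 and 0.31. The median of member pairs ran from 0.69 (without anti-Ang2 3) to 0.80 (without anti-Ang2 5) when 1 library was left out.

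**Figure D3:**
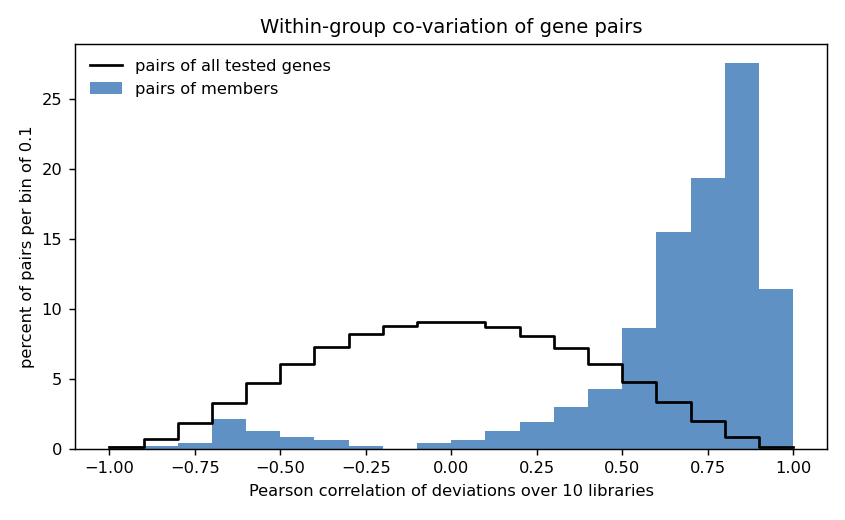
Distribution of Pearson correlations of within-group deviations over 10 libraries (horizontal axis), as percent of pairs per bin of 0.1 (vertical axis), for the 465 pairs of members (bars) and all pairs of tested genes (line). Member pairs pile up above 0.5 with a median of 0.74, and 29 of the 30 pairs under 0 include Mybl2.

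The libraries behind this pattern can be named. Among IgG libraries, IgG 5 was the lowest in 23 members and IgG 4 in the other 8, while the highest was IgG 2 in 13, IgG 3 in 12 and IgG 1 in 6. Among anti-Ang2 libraries, anti-Ang2 3 was the lowest in 27 members, in 26 of which it was the lowest of all 10 libraries, and anti-Ang2 4 was the highest in 22. Anti-Ang2 4 exceeded the IgG median in 14 members and IgG 5 in 23. Anti-Ang2 3 and anti-Ang2 5 lay below every IgG library in 28 and 25 members, anti-Ang2 2, 1 and 4 in 13, 11 and 6. Corresponding counts over all tested genes were not made, so these numbers only describe the libraries. Without anti-Ang2 4, the groups did not overlap in 6 members (Kif23, Mki67, Ttk, Aurkb, Top2a and Kif11), against 4.91% of tested genes, and without IgG 5 in 6 (Kif23, Mki67, Top2a, Kif11, Aurka and Cenpf), against 4.46%.

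Single members followed the rest to different degrees. Top2a, Tpx2, Ccna2 and Birc5 followed most closely, with correlations of 0.94 between their deviations and the mean of the other 30 members, and 14 members exceeded 0.9. Kif23 (0.84) and Mki67 (0.92) were among the followers. The least close were Mybl2 (-0.65), Foxm1 (0.36), Anln (0.63) and Aurka (0.65). Of 30 member pairs with a negative correlation, 29 included Mybl2 and the other included Foxm1. The correlation of both transcription factors with each other was 0.33. Neither CHR nor CCAAT was matched in the windows of Birc5, Nusap1, Tacc3 and Mybl2. The correlations of these members with the rest were 0.94, 0.93, 0.70 and -0.65.

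**Figure D4:**
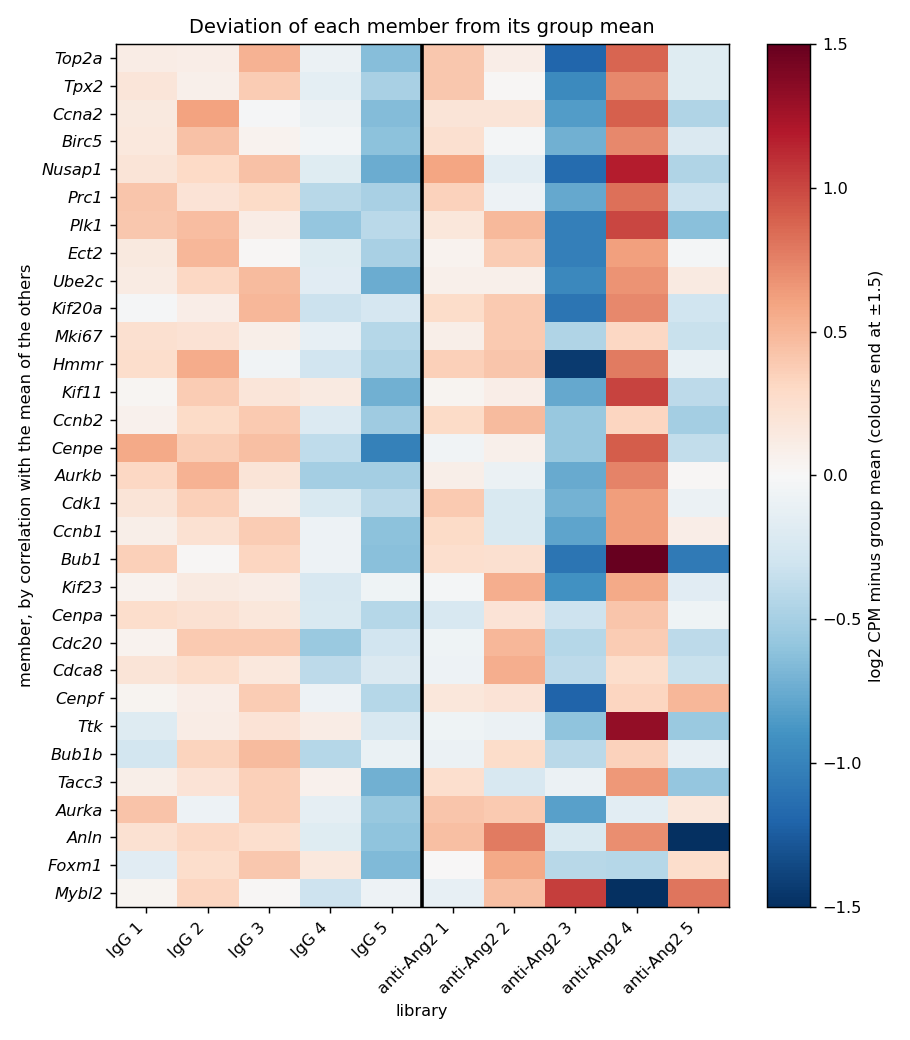
Heat map of the deviation of log2 CPM from the group mean for each member (rows, ordered by correlation with the mean of the other 30) in each library (columns); red is above and blue below the group mean, and colours end at ±1.5. The IgG 5 and anti-Ang2 3 columns are mostly blue and the anti-Ang2 4 column mostly red, while Mybl2, in the bottom row, is reversed in anti-Ang2 3 and 4.

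Other genes with similar deviations were partly mitotic. Of the 50 tested genes most correlated with the members' mean, 21 belonged to a list of 108 other G2/M and mitosis genes and 1 to a list of 42 G1/S genes, and the other 28 to neither. The 8 closest were Mxd3, a MAX-binding repressor of the MAD family (0.97), Fam64a (0.95), the kinesin Kif18b (0.94), Tmem263 (0.93), Srgap2 (0.92), the condensin subunit Ncaph (0.92), Tcerg1l (0.92) and the scaffold Iqgap3 (0.92). These were picked for their high correlation over 10 libraries, which is given as a description. Their log2 fold changes after anti-Ang2 ran from -1.48 (Tcerg1l) to 0.10 (Tmem263), and none passed the test.

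Few other genes of the pathway passed the test. Of the 108 other G2/M and mitosis genes, all of which were tested, 95 (88.0%) had a log2 fold change under 0, with a median of -0.48, and 13 had one above 0. By edgeR 3 fell and 0 rose, a share near that of all tested genes (2.80%); at an unadjusted p under 0.05, 43 were lower (39.8%) and 3 higher, against 9.10% and 9.14% of tested genes, and these genes too vary together. The 3 were the securin Pttg1 (log2 fold change 0.43 ± 0.12 (SE), adjusted p = 0.0735 by edgeR), Zwint (log2 fold change 0.20 ± 0.07 (SE), adjusted p = 0.146 by edgeR) and Cdc26 (log2 fold change 0.24 ± 0.11 (SE), adjusted p = 0.251 by edgeR), named after their values were seen. Separase (Espl1), the protease that cuts sister chromatids apart, was at 12.4, 12.1, 16.2, 6.51 and 14.9 CPM in IgG libraries 1 to 5 and 3.36, 4.05, 3.84, 3.72 and 1.05 CPM in anti-Ang2 libraries 1 to 5. Every anti-Ang2 library lay below every IgG library (log2 fold change -1.95 ± 0.36 (SE), adjusted p = 0.0115 by edgeR). Citron kinase (Cit), which acts at the midbody, was at 26.9, 28.6, 37.6, 29.5 and 30.5 CPM in IgG libraries 1 to 5 and 20.4, 16.6, 13.5, 19.9 and 8.98 CPM in anti-Ang2 libraries 1 to 5, also without overlap (log2 fold change -0.95 ± 0.20 (SE), adjusted p = 0.026 by edgeR). The kinetochore protein Kntc1 was at 11.1, 13.1, 15, 7.16 and 9.00 CPM in IgG libraries 1 to 5 and 2.86, 7.21, 2.3, 4.12 and 4.39 CPM in anti-Ang2 libraries 1 to 5. Anti-Ang2 2 lay just above IgG 4, and the other anti-Ang2 libraries lay below every IgG library (log2 fold change -1.41 ± 0.32 (SE), adjusted p = 0.0327 by edgeR). In Espl1 and Cit, unlike most members, anti-Ang2 5 and not anti-Ang2 3 was the lowest library. The number that fell was 1 without IgG 2, IgG 3 or anti-Ang2 3, 6 without IgG 4, 13 without anti-Ang2 4, against 2.44% of tested genes, and 23 by DESeq2, against 5.94%. Pairs of these genes had a median correlation of deviations of 0.29.

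Few genes that hold the cycle back passed the test. Of 25 tested cell cycle inhibitors and DREAM subunits, 1 rose and 0 fell by edgeR, against 1.34% of tested genes higher, with a median log2 fold change of 0.05. The one that rose was Cdkn2b (p15), an inhibitor of the G1 kinases Cdk4 and Cdk6, at 6.57, 9.14, 6.9, 8.72 and 6.6 CPM in IgG libraries 1 to 5 and 15.5, 23.6, 12.1, 15 and 8.98 CPM in anti-Ang2 libraries 1 to 5. All anti-Ang2 libraries except the fifth lay above every IgG library, and anti-Ang2 5 was just below IgG 2 (log2 fold change 0.99 ± 0.24 (SE), adjusted p = 0.0447 by edgeR). With 1 library left out, no gene of this list rose in 9 of the 10 fits, the exception being the fit without anti-Ang2 5, and none rose without the filter on low counts. Cdkn1a (p21), Cdkn1b (p27), the pocket protein Rbl2 and the MuvB subunits Lin9, Lin37, Lin52 and Lin54 did not pass. For reference, 8 of 42 genes of G1/S and DNA replication fell (19.0%, against 2.80% of tested genes) and 0 rose, with a median of -0.56; the difference between that list and the members was not tested. The number that fell was 18 by DESeq2, against 5.94% of the genes it adjusted, and 5 to 9 with 1 library left out (5 without IgG 2 or IgG 3). With the melanoma sum as a covariate it was 1, against 71 of 16240 tested genes. With the macrophage sum it was 3, against 170 of 16240 tested genes. Of the 8, those of smallest p were E2f2 (log2 fold change -1.39 ± 0.19 (SE), adjusted p = 0.00255 by edgeR), Tk1 (log2 fold change -1.28 ± 0.18 (SE), adjusted p = 0.00255 by edgeR) and Clspn (log2 fold change -1.58 ± 0.26 (SE), adjusted p = 0.00566 by edgeR).

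Markers of other cell types also differed between libraries. The summed CPM of 12 melanoma markers was 655, 2491, 407, 2661 and 879.9 in IgG libraries 1 to 5. In anti-Ang2 libraries 1 to 5 it was 8178, 6057, 6984, 2616 and 1669. Its mean was higher in the anti-Ang2 group, where the mean of the members was lower. Among treated libraries, anti-Ang2 3 had 6984 CPM with the lowest member sum (306 CPM). Anti-Ang2 4 had 2616 CPM with the highest member sum (740 CPM). Anti-Ang2 5 had the lowest melanoma sum of its group, though above IgG 1, 3 and 5, and a member sum of 413 CPM. None of these 12 markers was at 0 in a library. The sum of 15 macrophage and monocyte markers was 209, 51.6, 77.9, 82.5 and 56.3 in IgG and 252, 108, 280.4, 173 and 72.1 in anti-Ang2 libraries, and 6 of them (Adgre1, Itgam, Fcgr1, Ms4a7, Cx3cr1 and Ccr2) were at 0 in at least 1 library. That of 8 pericyte and smooth muscle markers reached 127 ± 56.7 CPM for IgG and 285 ± 101.4 CPM for anti-Ang2 (SD, n = 5 each), with Myh11 and Des at 0 in some libraries. Most of that difference was Cspg4 (53.2 and 172 CPM) and Kcnj8 (23.4 and 62.3 CPM), of which Kcnj8 passed the test, while the means of Pdgfrb (8.15 and 4.69 CPM), Rgs5 (7.83 and 3.29 CPM), Des and Myh11 were lower in anti-Ang2 libraries. The sum of 9 blood endothelial markers was 3653, 5889, 5469, 4865 and 5974 in IgG and 3163, 3351, 2758, 5309 and 2605 in anti-Ang2 libraries, most of it Plvap, a protein of endothelial fenestrae. Plvap had means of 4022 ± 823 and 2216 ± 765 CPM, while the other 8 markers summed to 1148 ± 297 and 1221 ± 372 CPM (SD, n = 5 each), so that the lower sum was that of Plvap. Among treated mice the sum of all 9 was highest in anti-Ang2 4, as the members were, and low in anti-Ang2 3 and 5, but among IgG mice it was highest in IgG 5, where the members were lowest. With the log2 melanoma sum as a covariate the median log2 fold change of the members was -0.44, with 30 of 31 under 0, and with the macrophage sum it was -0.63, with 31 of 31. With the blood endothelial sum, a covariate added after its values were seen, it was -0.23, with 29 of 31 under 0. In each of these 3 fits 0 members passed by edgeR, and 3, 9 and 3 had an unadjusted p under 0.05. Genes called lower over the whole table numbered 71, 170 and 4 of 16240 in these fits, against 454 in the fit without a covariate. With the blood endothelial sum without Plvap, also added after the values were seen, the median was -0.64 and 31 of 31 were under 0. In that fit 3 members passed (Kif23, Mki67 and Ttk), against 408 of 16240 tested genes called lower. The melanoma, macrophage and blood endothelial sums had different means in IgG and anti-Ang2 libraries. Fits with these sums therefore cannot tell treatment and cell makeup apart. The part of these cell types in the result was not tested.

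**Figure D5:**
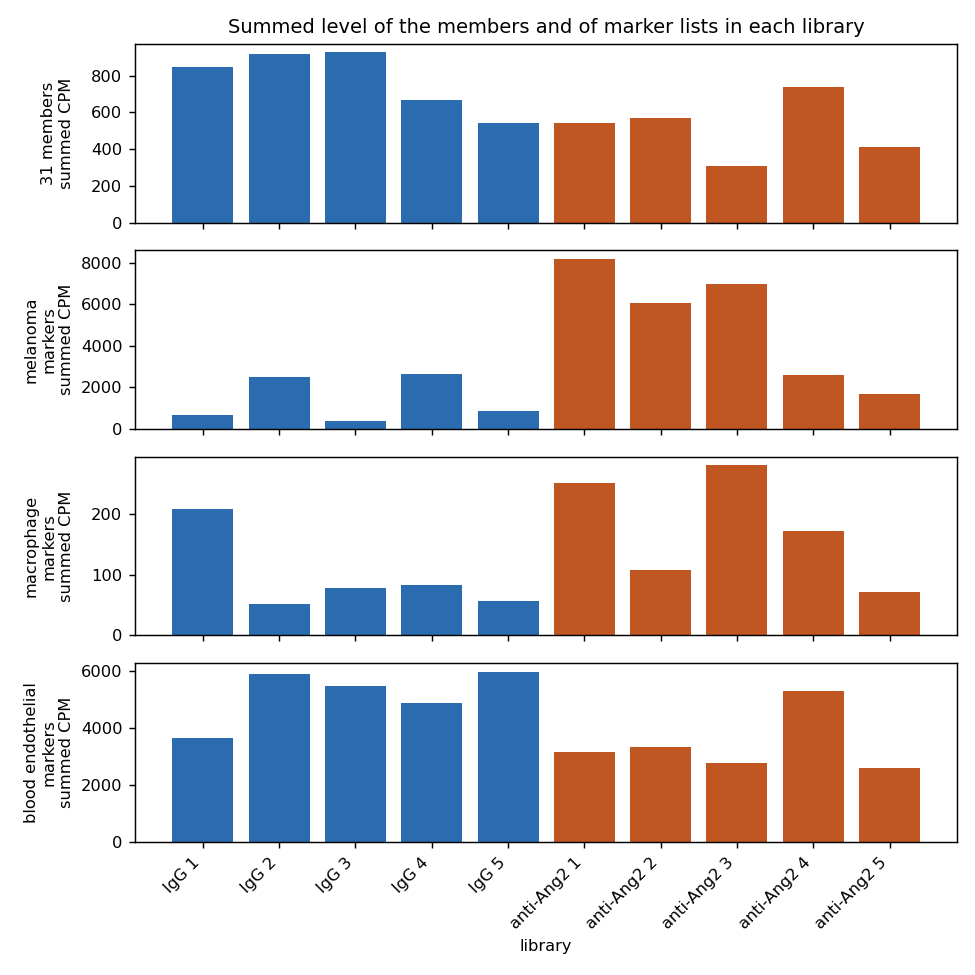
Summed CPM (vertical axes, linear, from 0) of the 31 members and of the melanoma, macrophage and blood endothelial marker lists in each of the 10 libraries (bars; blue IgG, orange anti-Ang2). The member sum is lowest in anti-Ang2 3 (306) and highest in IgG 3 (927), and anti-Ang2 4 (740) lies above IgG 4 and IgG 5.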

How the data were processed

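LEC sorted from MT-ret melanomas of 10 mice, 5 per treatment, were profiled by RNA sequencing (SMART-Seq v4 cDNA, a kit that does not mark the strand), and groups were taken from the treatment label. STAR, featureCounts, DESeq2 and the mm10 build were used, per the submitters' processing notes; versions and annotation release are not given in the sources used here. Raw gene counts per library, deposited by the authors per the file headers, were the values tested. Deposited FPKM, made by the authors, were used for levels per length and in 1 alternative on log2(FPKM + 0.1). Values that the authors deposited under the heading TPM exceed in sum what TPM allow, so they were recorded as a score, and were not used. The log2 fold changes and p-values in the deposited table are the authors' own. Columns left unmapped to a sample numbered 0.

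The 31 members and the gene lists, written from textbook knowledge, were chosen with earlier results of these data known. Counts were tested with edgeR 4.0.16 in R 4.3.3 (quasi-likelihood F test, two-sided, TMM, low counts removed by filterByExpr at count 10 and total 15, with no covariate) on the whole table; 16240 genes were tested, all 31 members among them, with calls at a Benjamini-Hochberg p below 0.05. Log2 CPM used a prior count of 2. Alternatives used DESeq2 1.42.0 and limma 3.58.1 (voom), and plots matplotlib 3.10.9. The edgeR, voom and DESeq2 scripts were tested on simulated data. Values in every library are printed for members that passed and, per role, for the member of highest FPKM and of smallest p; for other lists for called genes, up to 3 per direction. Gene spans are from GENCODE M21 (mm10). Totals were 38090933 to 83850341 counts per library; reads carry no molecular identifiers, so the interval given covers counting error only. The kit being unstranded, reads of overlapping antisense genes cannot be told apart. Replicate numbers do not pair mice.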

Additional observations from a re-analysis of the deposited data

Results flagged for a closer look

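In 3 of 64 sets of 5 libraries (31 members and their mean, in each group), 1 library lay far from the other 4, by a criterion that chance meets in about 1 set in 20. Ttk was high in anti-Ang2 4, at a log2 CPM of 2.96. Cenpf was low in anti-Ang2 3, at 3.0. Tacc3 was low in IgG 5, at 4.11. The mean of the members was not among them.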

How the results depend on the processing

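The median log2 fold change of the members stayed under 0 in every alternative, at -0.75 (voom with quality weights) to -0.23 (blood endothelial covariate), and at -0.73 to -0.44 when 1 library was left out. The count of members that fell was less stable: against 2 in the reported fit it was 7 by DESeq2, 8 by voom with quality weights, 5 without anti-Ang2 4 and 5, and 0 without anti-Ang2 1, 2 and 3 and with the melanoma, macrophage or blood endothelial sum as a covariate, but 3 with the blood endothelial sum without Plvap. Leaving out 1 library gave 0 to 5. Over all tested genes, 454 fell in the reported fit, 880 by DESeq2, 530 by voom, 780 by voom with quality weights and 498 on FPKM. They numbered 598 without anti-Ang2 4 and 5 and 178 without anti-Ang2 1, 2 and 3. With the melanoma, macrophage and blood endothelial sums they numbered 71, 170 and 4, and with the last sum without Plvap 408. Leaving out 1 library gave 259 to 468 over all tested genes. Of the other G2/M genes, 3 fell in the reported fit, against 23 by DESeq2, 9 by voom, 24 by voom with quality weights, 7 on FPKM, 17 without anti-Ang2 4 and 5, 1 without anti-Ang2 1, 2 and 3, 0 with the melanoma or blood endothelial sum and 1 with the macrophage sum. Leaving out 1 library gave 1 to 13. The number that rose was 0, against 2 by DESeq2 and 1 by voom with quality weights. G1/S genes that fell numbered 8, against 0 with the blood endothelial sum, 8 with that sum without Plvap, 3 without anti-Ang2 1, 2 and 3, and 10 without anti-Ang2 4 and 5. Scaling by DESeq2-type size factors or the upper quartile, or omitting the filter, gave the same 2 members. The cause of these differences was not tested. Cenpa turned positive with the melanoma sum (0.105), with the blood endothelial sum (0.073), without anti-Ang2 1, 2 and 3 (0.0879) and without anti-Ang2 3 (0.0070; -0.19 to 0.0070 over single libraries left out), and Bub1 with the blood endothelial sum (0.0759) and without anti-Ang2 1, 2 and 3 (0.0562). Co-variation of members kept a median of 0.69 to 0.80 without 1 library. CHR matches numbered 9 in the shorter promoter window, against 20.

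Sample titles carry numbers 1 to 5 in both groups, but deviations of same-numbered libraries correlated at -0.12 to 0.11 and those of other pairs at -0.20 to 0.19 over tested genes, so the numbers were not taken as pairs. With the number as a replicate block, 1 member (Mki67), 1 other G2/M gene and 3 G1/S genes fell, against 268 of 16240 tested genes. The median of the members was -0.66 in that fit.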
